A study of Mus musculus with 2 samples.

Results

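The mitochondrial genome encodes 37 genes in the mouse annotation used here: 13 messenger RNAs (mRNAs), 2 ribosomal RNAs (rRNAs) and 22 transfer RNAs (tRNAs). They were taken as all genes whose GENCODE M21 symbol starts with mt-, and all 37 of the 55536 annotated genes were found in the deposited gene tables. They were measured in chromatin fraction RNA of macrophages derived from bone marrow of the mouse strain C57BL/6J, stimulated for 0 minutes with lipid A at 100 ng/ml. Lipid A is the bacterial endotoxin component sensed by Toll-like receptor 4. RNA was sequenced as total RNA after ribosomal RNA depletion, in fragments of 250 to 400 bases. There is 1 group of 2 libraries, with an RNA input of 250 ng in replicate 1 and 500 ng in replicate 2. No treated group was compared, no p-value is given, and the sex and age of the mice were not collected. The libraries are labelled as biological replicates but share a donor entry, and their spread may be technical.

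Mitochondrial DNA is a circle read from both strands. Polrmt with its partners Tfam and Tfb2m makes a long transcript of nearly each whole strand, in which most mRNAs and rRNAs are separated by tRNAs, and the tRNAs are cut out to free the RNAs between them. The mRNAs encode subunits of respiratory complexes I, III, IV and V, and the rRNAs form the mitochondrial ribosome. All of this happens inside mitochondria, away from nuclear chromatin, so that mitochondrial RNA in a chromatin preparation is commonly read as carry-over. Pieces of mitochondrial DNA have also been copied into nuclear chromosomes, where they are annotated as pseudogenes.

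Depth was 10933708 expected counts on annotated genes in replicate 1 and 14168886 in replicate 2. An expected count is an estimated number of reads, in which a read that fits several genes is divided among them. In the gene table all 8 macrophage markers were detected, at a median of 63.7 ± 12.4 (SD, n = 2) TPM (counts per effective length, scaled to a sum of 1000000), and none of 18 markers of other cell types was. The second transcript table lists 3 of those 18 as detected, Cd3d (8.34 and 10.8 TPM), Pecam1 (4.88 and 6.64 TPM) and Col1a1 (1.02 and 1.74 TPM). Detection means 1 TPM or more in both libraries.

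The reads of 5 of the 13 mRNAs could not be told from those of nuclear copies, which decides how the levels below can be read. A block on chromosome 1, chr1:24611535-24616197 on the minus strand of mm10, holds 7 unprocessed pseudogenes that follow the order of their mitochondrial counterparts: Gm29216 (mt-Co1), Gm28661 (mt-Co2), Gm10925 (mt-Atp6), Gm28437 (mt-Co3), Gm28438 (mt-Nd3), Gm10222 (mt-Nd4l) and Gm28439 (mt-Nd4). Gm28661 is identical to mt-Co2 over 681 of its 684 bases, Gm10925 to mt-Atp6 over 678 of 681, Gm28437 to mt-Co3 over 783 of 784 and Gm10222 to mt-Nd4l over 294 of 297. Gm28438 matches mt-Nd3 over 345 of 348 bases with 1 mismatch. The copies of the 2 longer genes are partial, with 876 of 1378 bases of mt-Nd4 identical in Gm28439 and 483 of 1545 bases of mt-Co1 aligned to Gm29216 with 1 mismatch. In the aligned parts of all 7 pairs together, with Gm29216 aligned from its base 10 on, 2 substitutions were found. The sequences that hold them, and an end of a pair without any, show how little there is to tell the genes apart. The letters are from the GENCODE M21 transcripts, on mm10.

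mt-Co1, chrM:6390-6419, plus strand: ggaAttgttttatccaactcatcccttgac
Gm29216, chr1:24616159-24616188, minus strand: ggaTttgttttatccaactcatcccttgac
mt-Nd3, chrM:9459-9488, plus strand: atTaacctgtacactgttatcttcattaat
Gm28438, chr1:24613090-24613119, minus strand: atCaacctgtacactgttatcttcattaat
mt-Co2, chrM:7667-7696, plus strand: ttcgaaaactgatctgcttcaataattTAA
Gm28661, chr1:24614885-24614911, minus strand: ttcgaaaactgatctgcttcaataatt

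Capitals mark the base that differs, A1066T in mt-Co1 and T3C in mt-Nd3 (mitochondrial base first, position from 1 at the start of the mitochondrial transcript, then the base of the copy), and the stop codon that the annotated copy of mt-Co2 ends before. The same holds for the whole of mt-Nd4l, which encodes a small membrane subunit of complex I. It is printed because the annotated copy Gm10222 has every base of it but the last codon, in capitals. That codon lies in the overlap of mt-Nd4l with mt-Nd4, whose copy Gm28439 is identical there, so the chromosome 1 block holds it too.

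mt-Nd4l, chrM:9877-10173, plus strand: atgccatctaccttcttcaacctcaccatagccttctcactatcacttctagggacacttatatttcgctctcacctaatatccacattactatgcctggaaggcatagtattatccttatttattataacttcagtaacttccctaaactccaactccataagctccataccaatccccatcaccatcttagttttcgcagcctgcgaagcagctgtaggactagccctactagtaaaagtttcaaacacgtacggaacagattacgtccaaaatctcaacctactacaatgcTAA

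Of the windows of 31 bases in each mitochondrial mRNA, 100% of those in mt-Co2, 99.9% in mt-Co3, 99.5% in mt-Atp6, 98.9% in mt-Nd4l and 98.1% in mt-Nd3 were also in the transcript of an annotated nuclear gene. The share was 63.9% in mt-Co1 and 62.8% in mt-Nd4, and between 0 and 16.8% in the other 6 mRNAs, which are mt-Nd1, mt-Nd2, mt-Nd5, mt-Nd6, mt-Cytb and mt-Atp8. It was 2.71% in mt-Rnr2 and 0 in mt-Rnr1. Windows of 100 bases gave 97.6% to 99.9% for the 5 near-complete pairs and 0 for 5 of the other 8 mRNAs. In those windows mt-Co1 and mt-Nd4 kept 30.8% and 60.8%, and mt-Nd2 3.20%, so that among the mRNAs only those 5 had next to no long stretch of their own.

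In the gene table the reads of these 5 pairs were listed almost wholly at the nuclear copies. For mt-Co2, the copper-binding subunit that takes electrons from cytochrome c in complex IV, the counts were 0 in both libraries, and Gm28661 held 644 in replicate 1 and 350 in replicate 2. For mt-Co3, another core subunit of complex IV, they were 6.56 and 2.03, and Gm28437 held 880 and 557. Both copies thus ranked above most members in count, while the genes they copy were at or near 0.

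The same was listed for mt-Atp6, the proton channel subunit of ATP synthase (complex V), with 5.64 and 0 counts against 335 and 257 at Gm10925. Counts were 0 in both libraries for the complex I subunits mt-Nd3 and mt-Nd4l, against 69 and 41 at Gm28438 and 66 and 53 at Gm10222. Over the 5 pairs, 99.4% of the counts in replicate 1 and 99.8% in replicate 2 stood at the copy. The sums of each pair were whole numbers, 644 and 350, 341 and 257, 887 and 559, 69 and 41, and 66 and 53. The partial copies took little: mt-Co1 kept 99.9% and 100% of its pair's counts and mt-Nd4 100% and 93.3%, where Gm28439 had 23.4 counts in replicate 2.

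The second transcript table, made from the same reads with another method, divided the same pairs the other way. There 100% of the counts of the mt-Atp6, mt-Nd3 and mt-Nd4l pairs stood at the mitochondrial gene in both libraries, with 386 and 321 counts for mt-Atp6, 82 and 49 for mt-Nd3 and 95 and 73 for mt-Nd4l. For mt-Co3 it was 82.0% in replicate 1 and 99.6% in replicate 2, and for mt-Co2 44.3% and 0.137%. Counts of mt-Co2 were thus 330 in replicate 1 and 0.565 in replicate 2, while Gm28661 held 415 and 410. The pair's sum was 745 and 411, so the libraries differed far less in the sum than in mt-Co2 alone. Over the 5 pairs 25.8% and 27.6% of the counts stood at the copy.

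The gene table also gives a posterior mean, an average over ways of sharing out the reads in place of the single most likely one. By it 63.1% of the reads of the 5 pairs stood at the copies in replicate 1 and 59.3% in replicate 2. The mitochondrial gene's part was 27.5% and 40.4% for mt-Co2, 44.2% and 38.6% for mt-Co3, 39.7% and 47.5% for mt-Atp6, 28.3% and 37.8% for mt-Nd3 and 26.1% and 34.4% for mt-Nd4l. The deposited lower and upper bounds around it were wide for these genes and narrow for the rest. In replicate 1 they ran from 0.00153 to 98.6 TPM for mt-Co2 and from 2.82 to 128 TPM for mt-Co3, but from 41.1 to 50.3 TPM for mt-Nd1 and from 252 to 269 TPM for mt-Co1.

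**Figure D1:**
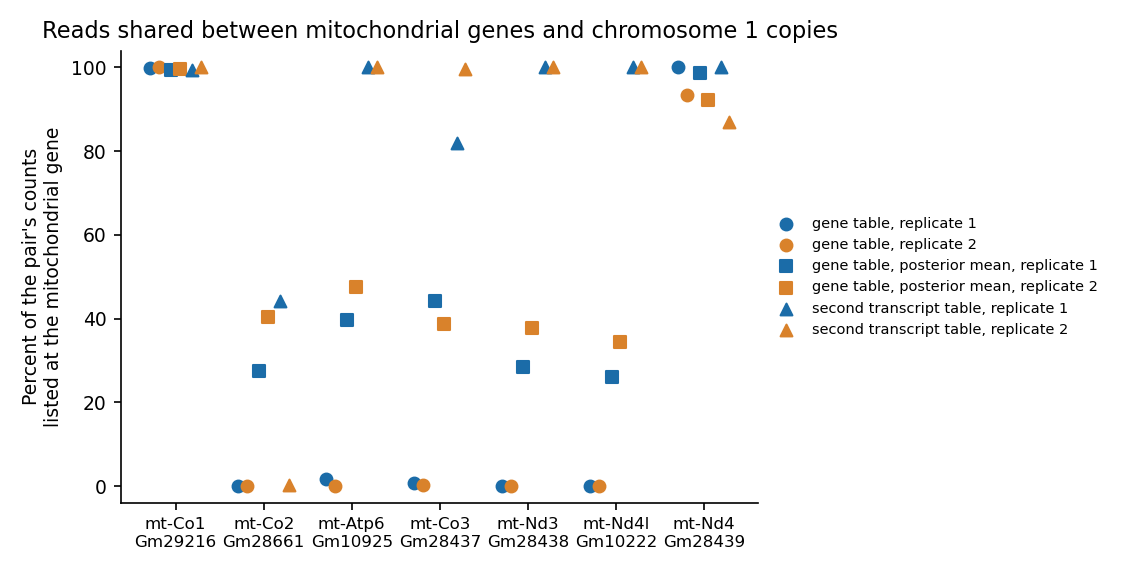
Percent of the expected counts of each mitochondrial gene and its chromosome 1 copy that was listed at the mitochondrial gene (vertical axis), for 7 pairs (horizontal axis), in 2 libraries (colours) and by 3 estimates (marker shapes). For mt-Atp6, mt-Nd3 and mt-Nd4l the gene table lies at 0 to 1.65% and the second transcript table at 100%, while mt-Co1 stays at 99.4% or more by each estimate.

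**Figure D2:**
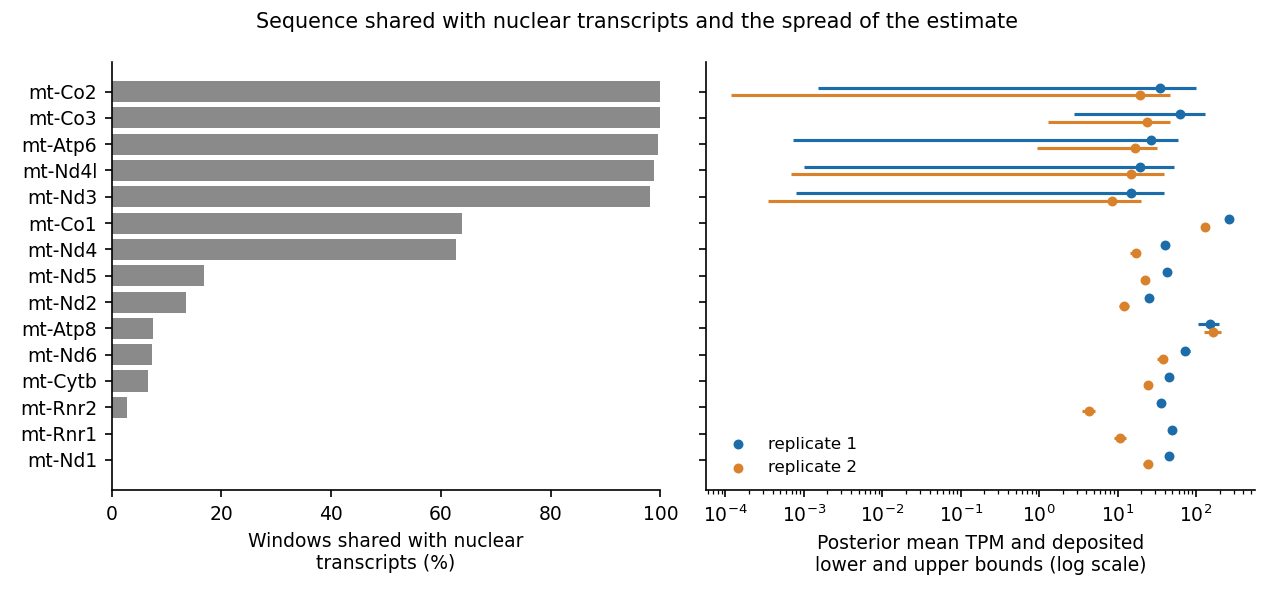
Left, percent of the 31-base windows of each mitochondrial mRNA and rRNA that also occur in a nuclear gene's transcript. Right, posterior mean TPM (points) with its deposited lower and upper bounds (lines) on a log axis, in 2 libraries (colours). The 5 genes at 98.1% or more on the left are those with the wide bounds on the right.

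Whether reads of these pairs came from mitochondria or from chromosome 1 was not tested, since their sequences do not differ enough. Outside the block, none of the other 10 nuclear pseudogenes that aligned to a member over at least 100 bases at 90% identity or more held over 1.01 counts in the gene table. In the second transcript table Gm43743, which aligns to 116 bases of mt-Atp6, held 31 and 43.7 counts. The block's 7 genes differed between the libraries as the members did, with 1999 counts in replicate 1 and 1281 in replicate 2, or 183 and 90.4 counts per 1000000 (RPM). That likeness does not show where the reads came from. As their source was not tested, levels of the 7 paired genes are also given with the copy's counts added, an addition chosen after the values were seen. It assigns all reads of a pair to the mitochondrial gene and is an upper limit for that gene.

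In all, members held 7624 counts in replicate 1 and 5020 in replicate 2, a small part of each library. That was 0.0697% of the counts in replicate 1 (95% Wilson interval 0.0682% to 0.0713%) and 0.0354% in replicate 2 (0.0345% to 0.0364%), a mean of 0.0526 ± 0.0243% (SD, n = 2). Such intervals, here and below, take in no more than counting error, as reads that carry no molecular identifier are not independent molecules. With the chromosome 1 copies added, the shares were 0.0880% and 0.0445%. The mRNAs made up 0.0609% and 0.0339%, the rRNAs 0.00884% and 0.00158%, and the tRNAs had no count in the gene table. RNA of other fractions of these cells was not analysed here, so the share has no whole-cell or cytoplasmic value beside it.

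Among the mRNAs, 8 of 13 were detected in the gene table, where 46.7% of all protein-coding genes were. The 5 that were not are the 5 with a near-complete copy. With the rRNAs, 10 of 37 members were detected, against 25.2% of all genes. The median TPM of the 13 mRNAs was 45.8 in replicate 1 and 18.6 in replicate 2, and that of the 10284 detected nuclear protein-coding genes was 11.3 and 10.8. Levels between genes are compared below as RPKM, here expected counts per kilobase of annotated length and per 1000000 counts on annotated genes, as TPM of short genes depended on the effective length used. In RPKM the medians were 20.5 and 16.8 for the 13 mRNAs as listed, and 9.09 and 10.2 for the detected nuclear genes. The 13 mRNAs include the 5 that were not detected, while the nuclear set was chosen by detection.

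mt-Co1, the catalytic subunit of complex IV, had the highest level of the members, at 234 RPKM in replicate 1 and 129 in replicate 2. It held 3960 and 2831 counts, 51.9% and 56.4% of all counts of the members. In TPM it was 293 and 140, which ranked it at 62 and 207 among 22028 protein-coding genes. With copies added it stood at 6.27 and 5.73 times the median of the 13 mRNAs, or 6.00 ± 0.385 (SD, n = 2).

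The other complex IV subunits came next once their copies were added. mt-Co3 then stood at 103.5 and 50.3 RPKM, and mt-Co2 at 86.1 and 36.1. Relative to the median mRNA of the same library this was 2.50 ± 0.380 for mt-Co3 and 1.95 ± 0.496 for mt-Co2. The ranges of these genes overlap between the libraries. Within each library mt-Co3 was the higher, at 2.77 against 2.30 in replicate 1 and 2.23 against 1.60 in replicate 2. As listed they stood at 0.765 and 0.183 (mt-Co3) and at 0 in both libraries (mt-Co2), and the posterior mean put them at 62.3 and 23.9 TPM and at 34.6 and 19.2 TPM. Which place they have in the order of levels thus turned on the copies.

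Levels of the middle group lay close together. With the copy added, mt-Atp6 stood at 45.8 and 26.6 RPKM, and without any paired copy mt-Nd6 at 41.6 and 23.5, mt-Nd5 at 39.6 and 22.8, mt-Cytb (the complex III subunit cytochrome b) at 37.4 and 22.6 and mt-Nd1 at 36.1 and 21.2. The order of these 5 was the same in both libraries, and their counts were 341 and 257, 236 and 173, 789 and 589, 468 and 366, and 378 and 287. mt-Nd4, with its partial copy added, had 35.8 and 17.98 RPKM, close to mt-Nd1. The steps between neighbours in a library were small beside the gap between the libraries.

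The lowest group held mt-Nd2, a complex I subunit, at 20.5 and 11.0 RPKM, mt-Nd4l at 20.3 and 12.6 and mt-Nd3 at 18.1 and 8.32, the latter 2 with copies added. mt-Nd2 had 233 and 161 counts and no near-complete copy, so its counts rest on no addition. Its level of 0.517 ± 0.0452 times the median mRNA is set against a median with copies added. mt-Nd3 stood lowest in both libraries per annotated length, but not by effective length: in the second transcript table it was at 20.5 and 12.9 TPM and mt-Nd2 at 13.5 and 9.72 TPM. mt-Nd4l and mt-Nd4 are made as a joint mRNA whose reading frames overlap by 7 bases, and the order of their levels turned on the length used. Per annotated length and with copies added, mt-Nd4l stood at 0.551 ± 0.0103 and mt-Nd4 at 0.877 ± 0.114 times the median. In TPM of the second transcript table mt-Nd4l was the higher, at 31.5 and 25.4 against 22.2 and 13.0 for mt-Nd4.

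**Figure D3:**
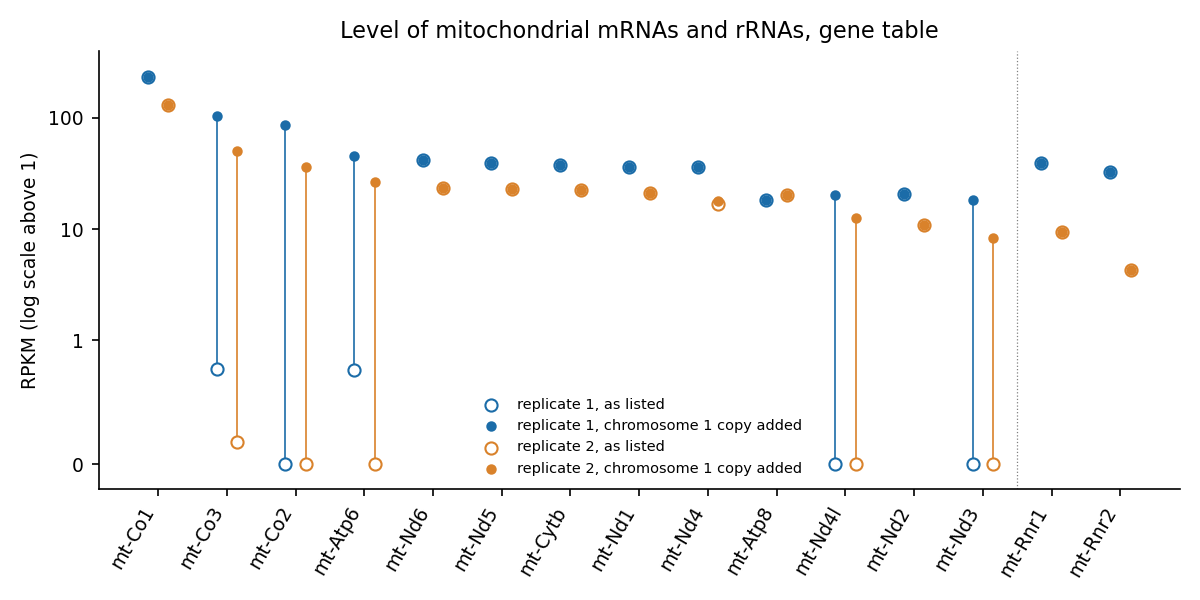
RPKM (vertical axis, logarithmic above 1) of the 13 mRNAs, in order of their mean with copies added, and of the 2 rRNAs (horizontal axis), in 2 libraries (colours). Open circles are values as listed in the gene table and filled circles have the chromosome 1 copy added: mt-Co2 goes from 0 to 86.1 in replicate 1, and mt-Atp8 alone is not lower in replicate 2.

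mt-Atp8, a small subunit of ATP synthase, is the shortest mRNA, and its level depended most on the length used. It had 41 counts in replicate 1 and 59 in replicate 2. The gene table gave it an effective length of 23.9 and 21.4 bases and a TPM of 166 and 178, the second highest of the mRNAs in replicate 1 and the highest in replicate 2. The second transcript table gave it 60.2 and 59.4 bases and 40.5 and 49.6 TPM, from 58 and 68 counts. Per kilobase of its 204 annotated bases it stood at 18.4 and 20.4 RPKM, in place 12 and 9 of the 13 mRNAs. Its sequence is shown because its 43 last bases, in capitals, are also the start of mt-Atp6 (chrM:7927-7969), so that a short read there fits both genes and the copy Gm10925.

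mt-Atp8, chrM:7766-7969, plus strand: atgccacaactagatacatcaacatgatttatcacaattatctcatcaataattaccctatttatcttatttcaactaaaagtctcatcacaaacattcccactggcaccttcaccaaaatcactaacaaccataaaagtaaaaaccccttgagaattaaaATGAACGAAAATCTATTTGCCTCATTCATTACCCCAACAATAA

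Gene ends meet at other places of this compact genome too. mt-Nd5 and mt-Nd6, on opposite strands, share 14 bases, and mt-Atp6 and mt-Co3 share 1. The transcripts of mt-Co3, mt-Nd4 and mt-Cytb stop at a lone T where a stop codon would stand, which the poly(A) tail completes. That T, in capitals, is in mt-Co3 also the base before which the annotated copy Gm28437 ends.

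mt-Co3, chrM:9361-9390, plus strand: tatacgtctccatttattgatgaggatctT
mt-Nd4, chrM:11515-11544, plus strand: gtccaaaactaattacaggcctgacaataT
mt-Cytb, chrM:15259-15288, plus strand: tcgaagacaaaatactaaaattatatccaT

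mt-Nd6, a complex I subunit, is the only mRNA on the minus strand of the reference, opposite to the other 12. Its level stood at 2.14 and 1.70 times the median of the other 12 as listed. With copies added the ratio was 1.13 and 1.08, and in the second transcript table as listed 1.15 in both libraries. So the excess of mt-Nd6 over the others was 1.92 ± 0.312 or 1.10 ± 0.0392, by whether the copies' counts were left out or added. Minus strand members held 3.10% and 3.45% of the members' counts, all at mt-Nd6. The sources used here do not say whether the libraries kept strand, so reads at mt-Nd6 cannot be assigned to either strand.

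The rRNAs, mt-Rnr1 of the small and mt-Rnr2 of the large mitochondrial ribosomal subunit, were far less even between the libraries than the mRNAs. mt-Rnr1 had 408 counts in replicate 1 and 128 in replicate 2, or 39.1 and 9.46 RPKM. mt-Rnr2 had 559 and 96, or 32.3 and 4.28. At most 2.71% of their 31-base windows were shared with a nuclear gene. In mitochondria rRNAs are much more abundant than mRNAs. Here, against the median mRNA as listed, mt-Rnr1 stood at 1.90 in replicate 1 and 0.564 in replicate 2, and mt-Rnr2 at 1.57 and 0.255. With copies added to the mRNAs the ratios were 1.04 and 0.419 for mt-Rnr1 and 0.864 and 0.190 for mt-Rnr2.

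Together the rRNAs made up 12.7% of the members' counts in replicate 1 (11.96% to 13.45%) and 4.46% in replicate 2 (3.93% to 5.07%). The second transcript table gave 13.4% and 5.38%, from 1477 and 381 counts. In that table both rRNAs stood at 1.25 times the median mRNA in replicate 1, and at 0.508 (mt-Rnr1) and 0.369 (mt-Rnr2) in replicate 2. In replicate 2 both lay below the median mRNA in either table, while in replicate 1 the ratio ran from 0.864 to 1.90 by gene, table and copies. Total RNA was depleted of ribosomal RNA, and whether the probes cover mitochondrial rRNA, or worked alike in both libraries, was not tested. The RNA input, 250 ng and 500 ng, also differs between the libraries and cannot be told apart from them.

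To set the members against other genes, log2 ratios of replicate 2 over replicate 1 were taken for the 10984 genes whose mean was 50 counts or more, scaled by TMM. This compares 2 libraries, not conditions. The ratios of 95% of these genes lay between -0.51 and 0.52, with a median of 0.01. Of them 0.209% were at least 2-fold lower in replicate 2, 0.164% at least 2-fold higher and 48.1% below 0.

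Of the 10 members with enough counts, 9 were below 0 and 4 at least 2-fold lower, with a median of -0.97. None was 2-fold higher. The 8 mRNAs had a median of -0.94 and the rRNAs were at -2.17 (mt-Rnr1) and -3.04 (mt-Rnr2). As shares of the counts, those of the rRNAs were 5.59 times and those of the mRNAs 1.80 times as high in replicate 1 as in replicate 2. In bulk RNA, fewer mitochondria in the fraction and less RNA in each cannot be told apart.

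The rRNA values lay near the far end of all genes. For mt-Rnr2 the exact interval from its counts was -3.37 to -2.73 and for mt-Rnr1 -2.47 to -1.89, which do not overlap. In the second transcript table they do, at -2.85 to -2.41 and -2.42 to -1.92. Only 2 genes of 10984 had a lower value than mt-Rnr2, an entry of Rnu3a (270 and 0 counts), a U3 small nucleolar RNA, and Gm26992 (131 and 0 counts), and 3 had a lower value than mt-Rnr1, mt-Rnr2 among them. These and the other genes in this comparison that are no members were named after their values were seen. In all 23 genes were at least 2-fold lower: 4 members, 3 chromosome 1 copies and 16 others, of which 9 were entries of small nucleolar RNAs. The 4 Rnu3b entries had the same counts, 467 and 169 each, and share their reads.

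Among the mRNAs, ratios were -1.22 for mt-Nd4, -1.03 for mt-Nd2, -0.99 for mt-Co1, -0.95 for mt-Nd6, -0.92 for mt-Nd5, -0.90 for mt-Nd1 and -0.86 for mt-Cytb. The best counted, mt-Co1, had an exact interval of -1.06 to -0.92, and those of the other 6 reach into it. In the second transcript table that of mt-Nd4 (-1.50 to -1.12) does not reach that of mt-Co1 (-1.02 to -0.89). There the partial copy Gm28439 held 0 counts in replicate 1 and 52.3 in replicate 2, against 624 and 352 at mt-Nd4. No interval was taken for the sum of that pair, so the gap may lie in how its reads were divided. All 7 lie below the central 95% of genes. mt-Atp8 was the exception at 0.02, with an interval of -0.58 to 0.63 that does not reach any of these 7 values. In the second transcript table it was at -0.25, and its interval there (-0.78 to 0.28) reaches the values of mt-Cytb (-0.77) and mt-Atp6 (-0.75), so it does not stand clear of them.

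With copies added all 13 mRNAs could be compared, and 12 were below 0, with a median of -0.95 and 5 at least 2-fold lower. Those 5 were mt-Co2 at -1.38, mt-Nd3 at -1.24, mt-Co3 at -1.17, mt-Nd4 at -1.12 and mt-Nd2. mt-Atp6 stood at -0.91 and mt-Nd4l at -0.81. The sums of the near-complete pairs thus fell in the range of the other mRNAs or a little below it, and none of the 5 lay within the central 95% of all genes.

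**Figure D4:**
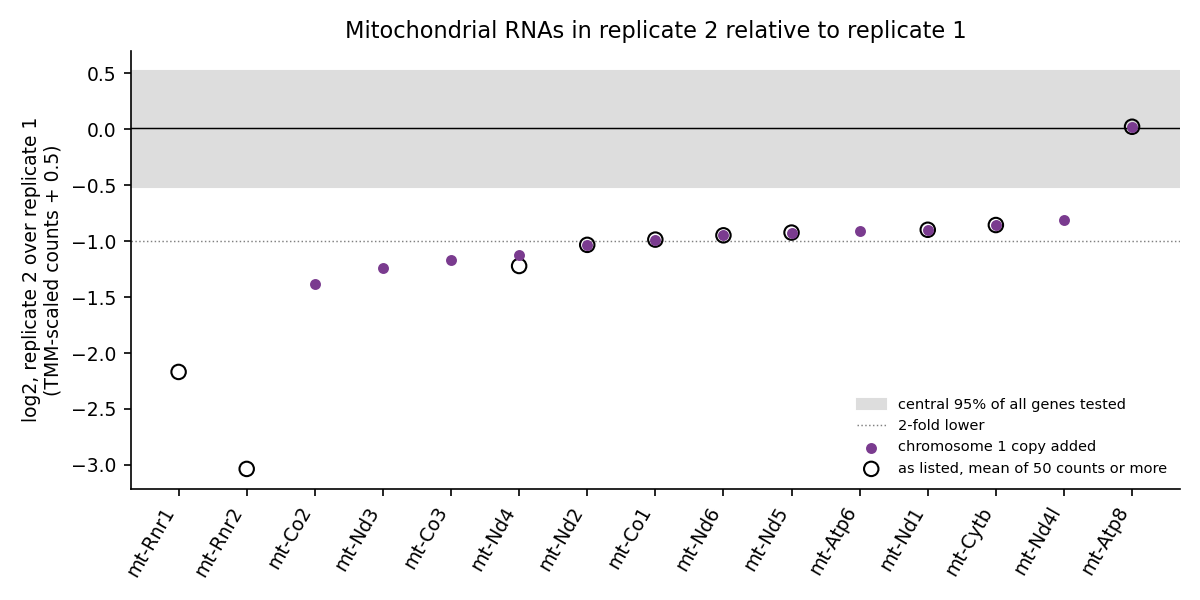
Log2 ratio of replicate 2 over replicate 1 (vertical axis, TMM-scaled counts plus 0.5) of the 2 rRNAs and 13 mRNAs (horizontal axis), as listed for the 10 members whose mean was 50 counts or more (open circles) and with the chromosome 1 copy added (filled circles). The grey band is the central 95% of all 10984 genes, -0.51 to 0.52, and holds mt-Atp8 (0.02) but no other member.

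The tRNAs carry amino acids in the mitochondrial ribosome and are 59 to 75 bases long, shorter than the fragments sequenced. In the gene table all 22 had 0 counts in both libraries, and all had an effective length of 0, meaning that no fragment of the sizes seen could lie inside them. A count of 0 would allow up to 3 counts, or 0.274 and 0.212 RPM, but with such a length it says nothing of the level. The first transcript table has the same values, as for all 37 members, which have 1 transcript each.

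The second transcript table gave them an effective length of 12.4 to 15.3 bases and 21 counts in replicate 1 and 15 in replicate 2. Counts were found for 9 tRNA genes in replicate 1, for 6 in replicate 2 and for 5 in both, and no gene had 10 or more. All 8 tRNA genes on the minus strand of the reference had a count in at least 1 library, with 20 and 13 counts in all. Of the 14 on the plus strand 2 had any, mt-Tk with 1 count in replicate 1 and mt-Tw with 2 in replicate 2. So 33 of the 36 counts lay on minus strand genes. As it is not known whether the libraries kept strand, this does not show which strand the reads came from. Whether they came from the tRNAs or from longer RNAs that run through these genes was not tested. The tRNAs with the most counts were mt-Tp (proline; 5 and 4), mt-Tc (cysteine; 5 and 2) and mt-Ta (alanine; 4 and 2), named after their values were seen. Their sequences are shown as annotated, on the minus strand, and none of their windows of 31 bases occurs in a nuclear gene's transcript.

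mt-Tp, chrM:15356-15422, minus strand: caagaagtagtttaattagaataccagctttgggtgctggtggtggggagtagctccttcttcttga
mt-Tc, chrM:5192-5257, minus strand: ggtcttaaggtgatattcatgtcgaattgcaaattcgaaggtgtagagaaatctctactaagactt
mt-Ta, chrM:5018-5086, minus strand: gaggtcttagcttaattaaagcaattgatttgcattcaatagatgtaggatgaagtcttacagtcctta

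**Figure D5:**
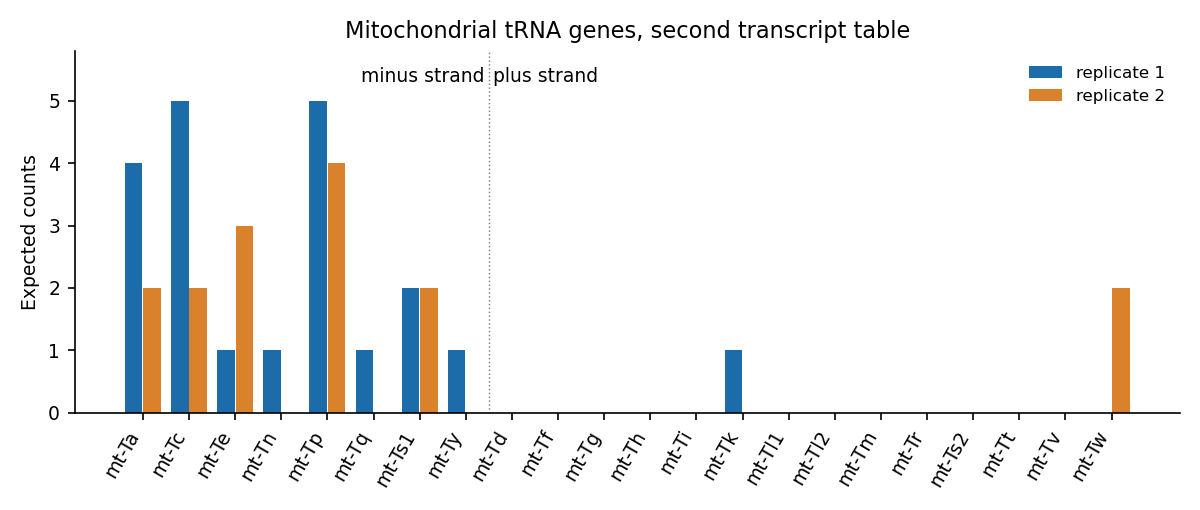
Expected counts in the second transcript table (vertical axis) of the 22 mitochondrial tRNA genes, by strand of the reference and name (horizontal axis), in 2 libraries (colours). The 8 minus strand genes hold 20 and 13 counts and the 14 plus strand genes 1 and 2, and no bar is above 5.

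The tables also differed in how many reads they held. Members had 1.44 and 1.41 times as many counts in the second transcript table as in the gene table, all genes 1.75 and 1.74 times. With the copies added to both, the ratio for mitochondrial sequence was 1.21 and 1.20, and the copies themselves held 626 and 465 counts there against 1999 and 1281 in the gene table. The rRNAs had 1.53 and 1.70 times as many.

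Mitochondrial genes depend on nuclear ones, and most of those listed were detected in the same libraries, where 46.7% of all protein-coding genes were. Of 10 genes of mitochondrial transcription 9 were detected, with a median of 3.71 ± 0.322 TPM (SD, n = 2). The highest were Mterf3 (17.4 and 17.6 TPM), of the termination factor family, and the RNA polymerase gene Polrmt (11.6 and 13.3 TPM), and the lowest Mterf2 (0.580 and 0.970 TPM). All 20 genes found of mitochondrial RNA processing and decay were detected, at a median of 7.83 ± 0.626 TPM. Fastk (35.4 and 33.9 TPM) and its relative Tbrg4 (22.9 and 17.4 TPM) were the highest, and Hsd17b10 (2.31 and 1.68 TPM), a subunit of the mitochondrial RNase P, was the lowest.

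Of the mitochondrial DNA replication list, 8 of 8 genes were detected, at a median of 8.95 ± 0.467 TPM, from the DNA polymerase gene Polg (50.6 and 41.0 TPM) and the single-strand binding protein gene Ssbp1 (30.9 and 39.7 TPM) to the topoisomerase gene Top1mt (1.28 and 2.10 TPM). All 20 nuclear respiratory subunit genes were detected, at a median of 14.3 ± 0.0354 TPM, with Atp5b (64.9 and 65.9 TPM), of ATP synthase, and Ndufs1 (30.6 and 28.9 TPM), of complex I, the highest and the complex III gene Uqcrfs1 (2.24 and 3.34 TPM) the lowest. Among genes of these 4 lists that reached a mean of 50 counts, none was 2-fold lower or higher in replicate 2, where 0.209% and 0.164% of all genes were. Their median log2 ratios were 0.12 (6 genes tested), 0.05 (18), 0.23 (7) and 0.03 (17). The lower values of the mitochondrial RNAs in replicate 2 thus stood beside no such shift in the nuclear genes of these lists.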

How the data were processed

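For each library the authors deposited 1 table of genes and 2 of transcripts. Per the notes deposited with the files, reads aligned to GENCODE M21 transcripts (mm10) gave the table of genes and the first of the transcript tables. An index of those transcripts, used on the reads directly, gave the second. No source used here names the tools. The deposited expected counts are estimates and need not be whole, and the deposited TPM values divide them by effective length. The deposited posterior mean counts and TPM, with bounds whose level the files do not name, were used as an alternative.

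A phage control (0.338% and 0.270% of the gene table counts), 96 spike-in entries with no count and 26248 numbered entries were left out of library totals. Gene names, classes and coordinates came from GENCODE M21. No genome was used: members were compared with other GENCODE transcripts by shared windows of 31 and 100 bases and by BLAST 2.17.0, keeping alignments of at least 100 bases and 90% identity. Log2 ratios used expected counts scaled by TMM (edgeR 4.0.16 in R 4.3.3) plus 0.5, for genes whose mean reached 50 counts. DESeq2 1.42.0 size factors, library totals, other filters, the second transcript table, other lengths and leaving out each library were alternatives. The log2 ratio step was tested on simulated data with 200 changed genes. Exact intervals of a ratio are binomial, at 95%. Other steps used Python 3.11.15 (numpy 2.4.6; pandas 2.3.3; scipy 1.17.1).

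The members, lists and rules were chosen with earlier results of these data known. The rule named all mRNAs and rRNAs, tRNAs with 10 or more counts, the 4 copies with the most counts, and the 2 highest and the lowest gene of each list by mean TPM. The other 3 copies of the chromosome 1 block, Gm43743 and 5 tRNAs were named outside it, after their values were seen. Prorp was matched under its symbol 1110008L16Rik.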

Additional observations from a re-analysis of the deposited data

How the results depend on the processing

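No paired analysis was possible because there is only 1 group, and the difference between the libraries needs both of them. Of 48 alternative values from both libraries, 28 moved by less than the spread between the libraries (for ratios of the libraries, the counting error of mt-Co1; for counts of genes, 1.5 times) and 20 by more; the cause was not tested. The mean ratio of mt-Rnr1 to the median mRNA, 1.23, was below 1 in the second transcript table (0.879), by effective length (0.913) and with copies added (0.732). In the second transcript table the copies held 26.7% of the counts of the 5 pairs in place of 99.6%, against 61.2% by posterior mean counts, added once values were known, as were the settings with copies added. mt-Nd6 stood at 1.15 times the other mRNAs in the second transcript table, at 1.10 with copies added, at 2.37 by effective length and at 1.59 against complex I genes alone, in place of 1.92. The median mRNA rose from 32.2 to 54.1 TPM when TPM was rescaled over genes of at least 200 bases, and from 18.7 to 30.0 RPKM with copies added. The second transcript table listed counts for 10 tRNA genes in place of 0 and gave -2.39 for the rRNAs between the libraries. Library totals, which move the median of all genes to 0.14, gave -0.81 for the mRNAs and -2.47 for the rRNAs. Members at least 2-fold lower numbered 3 by library totals and 6 with no filter or in the second transcript table. No share of all genes is given at these settings. The 6 in the second transcript table include mt-Co2 (330 and 0.565 counts), whose pair's sum was 745 and 411. Those with no filter include mt-Atp6 (5.64 and 0 counts) and mt-Co3 (6.56 and 2.03), whose pairs' counts stood almost wholly at the copies. The gain of the second transcript table fell from 1.43 to 1.20 times with copies added. It put the 4 nuclear lists at medians of 7.56 (transcription), 9.74 (processing), 15.6 (replication) and 22.3 TPM (respiratory subunits). At 5 TPM or more in the gene table, 4, 12, 5 and 18 genes of these lists were detected. The share of all protein-coding genes at 5 TPM was not taken, so these counts have no background beside them. Leaving out 1 of 2 libraries gives the value of the other, which by construction lies within the spread: 0.0354% to 0.0697% for the share of counts, 18.6 to 45.8 for the median mRNA in TPM and 16.8 to 20.5 in RPKM, 0.564 to 1.90 for mt-Rnr1 and 0.255 to 1.57 for mt-Rnr2 (both on either side of 1) and 1.70 to 2.14 for mt-Nd6. Depth limits mt-Atp8 (41 and 59 counts), the mt-Nd3 and mt-Nd4l pairs and the tRNAs.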
